A study of Homo sapiens with 6 samples.

Results

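The miR-15/16 seed family, with miR-424 and miR-503, was followed in exosomes of MDA-MB-231, a long-established human line of triple-negative breast carcinoma. Its members were taken by name, and 7 mature miRNAs of 4 gene clusters belong to it: hsa-miR-15a-5p, hsa-miR-15b-5p, hsa-miR-16-5p, hsa-miR-195-5p, hsa-miR-497-5p, hsa-miR-424-5p and hsa-miR-503-5p. The small RNA count tables listed 5 of them, among 437 mature miRNAs that could be matched to a RefSeq sequence and 66 that could not, while miR-195-5p and miR-497-5p were not listed. The exosomes were released by stable clones expressing an shRNA that targets MCU, which encodes the channel subunit of the mitochondrial calcium uniporter (shMCU), or a control shRNA (shNC). Each group had 3 libraries, all from cells kept in medium with exosome-free serum. The labels do not say whether libraries of 1 group stem from separate cultures; p-values therefore reflect the variation among these libraries alone, and it may be technical.

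MicroRNAs guide Argonaute proteins to messenger RNAs, mainly through the seed, bases 2 to 8 from the 5′ end, and lower their output. The miR-15/16 family is known for repressing cyclins D and E, CDK6 and the survival factor BCL2, and it slows entry into S phase. Loss of the miR-15a/16-1 cluster is frequent in chronic lymphocytic leukaemia. The cluster of miR-424 and miR-503 is induced by TGF-β and takes part in regression of the mammary gland after lactation.

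The mature sequences, from RefSeq on GRCh38.p14, show what the members share and where miR-503-5p departs from the others. They are written 5′ to 3′ with the seed in capitals.
miR-16-5p: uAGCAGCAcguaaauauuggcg
miR-15a-5p: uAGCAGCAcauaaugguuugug
miR-15b-5p: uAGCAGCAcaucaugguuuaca
miR-195-5p: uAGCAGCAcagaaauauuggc
miR-497-5p: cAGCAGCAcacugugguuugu
miR-424-5p: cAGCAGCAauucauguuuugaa
miR-503-5p: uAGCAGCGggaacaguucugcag
Counted from the 5′ end of miR-16-5p and without gaps, miR-503-5p differs from it within the first 9 bases by A8G and C9G, so its seed is AGCAGCG where the other 6 have AGCAGCA. miR-424-5p keeps the common seed and differs there by U1C and C9A. miR-15a-5p and miR-15b-5p differ from each other at 4 positions, A12C, G20A, U21C and G22A, of which 3 lie at the 3′ end. A read that ends before those 3 bases still covers position 12, where the 2 miRNAs differ. How reads with mismatches were assigned is not given in the sources used here, so for such reads the split rests on that 1 base. Of the 437 listed miRNAs that could be matched to a sequence, 4 had the seed AGCAGCA and 1 had AGCAGCG, all of them members.

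Each cluster lies in or beside a host transcript. On GRCh38, MIR15A (chromosome 13, 50049119 to 50049201, minus strand) and MIR16-1 (50048973 to 50049061) are 57 bases apart in DLEU2, a long non-coding RNA gene, MIR15A overlapping an exon and MIR16-1 an intron. MIR15B (chromosome 3, 160404588 to 160404685, plus strand) and MIR16-2 (160404745 to 160404825) are 59 bases apart in an intron of SMC4, which encodes a condensin subunit. MIR424 (chromosome X, 134546614 to 134546711, minus strand) and MIR503 (134546328 to 134546398) are 215 bases apart in MIR503HG, in an exon and an intron of that non-coding gene. MIR195 (chromosome 17, 7017615 to 7017701, minus strand) and MIR497 (7017911 to 7018022) overlap exons of MIR497HG. The mature miR-16-5p of both MIR16 hairpins has the same sequence, so its reads belong to chromosome 13, chromosome 3 or both. The reads were aligned to hg19, and the coordinates here are those of the annotation, not converted.

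The libraries were shallow. Totals were 12930, 14692 and 12859 counts in shMCU replicates 1, 2 and 3, and 47863, 11563 and 19884 counts in shNC replicates 1, 2 and 3. Where a miRNA had a count of 0, up to 3 counts are allowed, which is 62.7 CPM (counts after every library is scaled to 1 total) for the deepest library and 259 CPM for the shallowest. Intervals and limits on counts cover counting error only. The 5 basal-like markers of this cell line, miR-21-5p, miR-100-5p, miR-125b-5p, miR-221-3p and miR-222-3p, had counts in every library. Their sum ran from 256707 to 360712 CPM in shMCU and from 320073 to 366295 CPM in shNC libraries. The 7 listed epithelial miRNAs of 8 (members of the miR-200 family, miR-375, miR-205-5p and miR-203a-3p, listed under its older name miR-203a) together had 1429 to 3966 CPM in shMCU and 919 to 6573 CPM in shNC libraries. Most of the basal-like sum was miR-21-5p and miR-100-5p. miR-125b-5p was below miR-203a in shMCU replicate 3 (389 against 2644 CPM) and shNC replicate 2 (865 against 4497 CPM), and above it in the other libraries. The first principal component set shMCU replicate 3 away from the rest (score 6.11; the other 5 ran from -2.73 to 1.11), and miR-122-5p, a liver miRNA, was at 103663 CPM there against 12281 to 37231 CPM elsewhere. The MCU transcript is not measured by these libraries.

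By counts, the family was a small part of the exosomal miRNAs. It held 135 counts in shMCU and 309 in shNC libraries, 444 in all. Of these, 313 (70.5%) were miR-16-5p and 80 (18.0%) came from the X cluster, while miR-15b-5p gave 39 (8.78%) and miR-15a-5p 12 (2.70%). The summed level was 5104, 2518 and 2489 CPM in shMCU replicates 1, 2 and 3, against 3656, 4324 and 4225 CPM in shNC replicates 1, 2 and 3. One shMCU library lay above all shNC libraries and the other 2 below all of them, so the groups overlapped. The mean was 3370 ± 1502 CPM (SD, n = 3) in shMCU and 4068 ± 360 CPM in shNC, a difference of -698 CPM that is smaller than the spread within shMCU. The difference was -1565 CPM without shMCU replicate 1, -272 CPM without shMCU replicate 2 and -257 CPM without shMCU replicate 3. No test was made on this sum, because the members were chosen with earlier results of these data known.

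Between shMCU and shNC exosomes, no family member passed the test for a change. Only miR-16-5p and miR-503-5p had enough counts for the test across all miRNAs, and 0 of these 2 passed edgeR's quasi-likelihood test at an adjusted p of 0.05. The background was the same, with 0% of 79 tested miRNAs called by edgeR, 3 of them at an unadjusted p under 0.05; DESeq2 called 1, miR-122-5p. The fitted values of the 2 members had opposite signs, a log2 fold change (shMCU over shNC) of -0.35 for miR-16-5p and 0.87 for miR-503-5p. By CPM, the groups overlapped for each of the 5 listed members, so 0 members separated the groups, against 11.4% of the 79 tested miRNAs. With TMM-scaled CPM the 5 members overlapped as well, and 15.2% of the 79 did not.

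**Figure D1:**
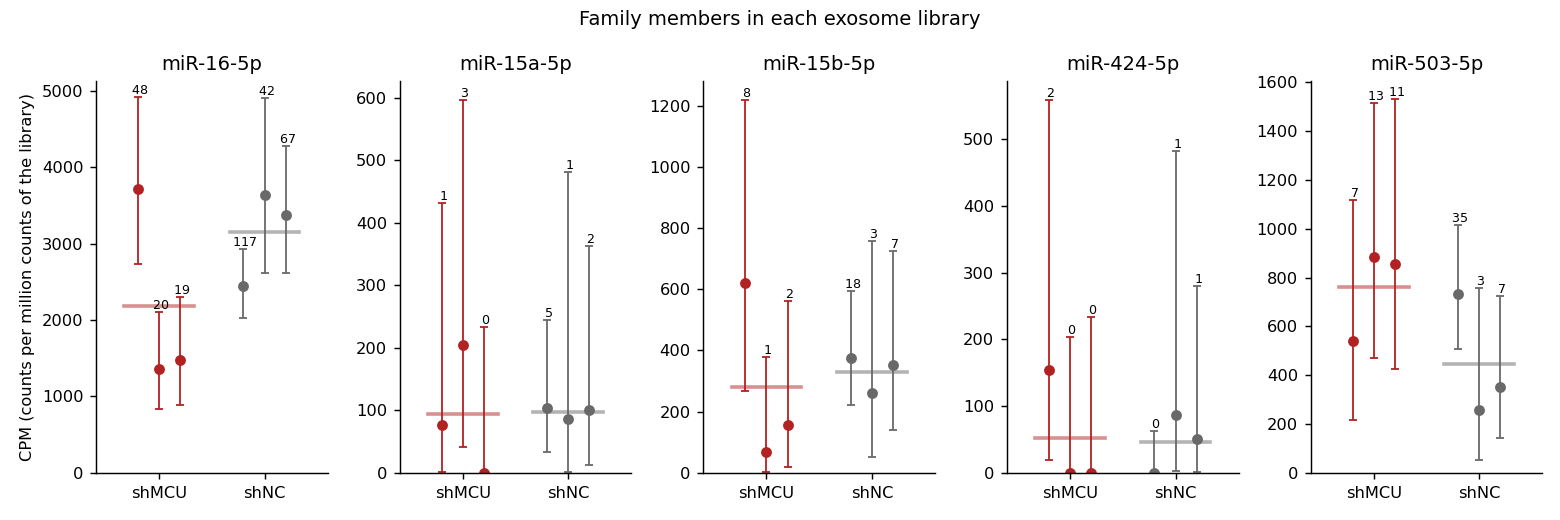
CPM of the 5 listed family members in each library (points), with exact 95% Poisson intervals for counting error (for a count of 0, up to the limit of 3 counts), the group mean (line) and the count printed above each interval; each panel has its own linear axis, and replicates run 1 to 3 from left to right within a group. For miR-16-5p, shMCU replicate 1 lies above all shNC libraries at 3712 CPM and the other 2 shMCU libraries lie below all of them. For miR-503-5p, 2 shMCU libraries lie above all shNC libraries.

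miR-16-5p, the most abundant member and a known repressor of BCL2 and cyclin D1, was counted 48, 20 and 19 times in shMCU replicates 1, 2 and 3, against 117, 42 and 67 times in shNC replicates 1, 2 and 3. These are 3712, 1361 and 1478 CPM in shMCU, against 2444, 3632 and 3370 CPM in shNC. The 2 low shMCU libraries lay under the lowest shNC library, while shMCU replicate 1 was the highest of all 6. The means were 2184 ± 1325 CPM (SD, n = 3) in shMCU and 3149 ± 624 CPM in shNC. The fitted fold was 0.78 with a 95% interval from 0.44 to 1.40, and the adjusted p was 0.86 (unadjusted p = 0.37, edgeR's quasi-likelihood test). The size of this change depended on single libraries. Without shMCU replicate 1 the log2 fold change was -0.86 (unadjusted p = 0.024, adjusted p = 0.26 by edgeR). It was -0.15 without shMCU replicate 2 (adjusted p = 0.93 by edgeR) and -0.24 without shMCU replicate 3 (adjusted p = 0.99 by edgeR). By abundance miR-16-5p ranked 36, 52 and 50 in shMCU and 42, 36 and 34 in shNC libraries.

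Red blood cells are rich in miR-16-5p, so the levels of their markers are given beside it. Of 4 such miRNAs, 3 were listed, and their sum was 928, 408 and 933 CPM in shMCU replicates 1, 2 and 3, against 564, 346 and 604 CPM in shNC replicates 1, 2 and 3. That sum was below miR-16-5p in every library, most closely in shMCU replicate 3 (933 against 1478 CPM). miR-451a, the defining red cell miRNA, had 4, 3 and 3 counts in shMCU and 7, 2 and 4 counts in shNC libraries. By CPM it was higher in all shMCU than in all shNC libraries, which held for 1.27% of the 79 tested miRNAs; miR-451a itself was under the filter on low counts. miR-486-5p had 482 ± 253 CPM in shMCU and 314 ± 127 CPM in shNC (SD, n = 3), and miR-144-5p 1 count in each group. These markers were highest in shMCU replicates 1 and 3, where miR-16-5p was highest and near its lowest. The part of such RNA in the miR-16-5p counts was not tested.

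miR-15a-5p and miR-15b-5p share the seed of miR-16-5p and lie beside it in their clusters. miR-15b-5p had 8, 1 and 2 counts in shMCU replicates 1, 2 and 3, against 18, 3 and 7 counts in shNC replicates 1, 2 and 3, which is 281 ± 296 CPM (SD, n = 3) in shMCU and 329 ± 61.6 CPM in shNC. As for miR-16-5p, shMCU replicate 1 was the highest of the 6 libraries and the other 2 shMCU libraries were the lowest. Its summed counts, 11 of 40481 in shMCU and 28 of 79310 in shNC, gave a ratio of 0.77 with an exact 95% interval from 0.35 to 1.59. That ratio was 0.31 without shMCU replicate 1 and, with its direction turned, 1.10 without shMCU replicate 2. miR-15a-5p was rarer, with 1, 3 and 0 counts in shMCU and 5, 1 and 2 counts in shNC libraries. Its ratio was 0.98 (exact 95% interval 0.22 to 3.66), and the 0 in shMCU replicate 3 allows up to 233 CPM, more than any level measured for it, so a difference was not detectable at this depth. That ratio was 0.38 when shMCU replicate 2 was left out and 1.44 when shMCU replicate 3 was.

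miR-503-5p, the member with the altered seed and a repressor of cyclin D1 and CDC25A, was the second most abundant by summed counts. It equalled miR-15b-5p in shNC replicates 2 and 3 and was below it in shMCU replicate 1 (7 against 8 counts). miR-503-5p was counted 7, 13 and 11 times in shMCU replicates 1, 2 and 3, against 35, 3 and 7 times in shNC replicates 1, 2 and 3. The levels were 541, 885 and 855 CPM in shMCU, against 731, 259 and 352 CPM in shNC. The groups overlapped through shNC replicate 1, the deepest library, which exceeded shMCU replicate 1. Means were 761 ± 190 CPM (SD, n = 3) in shMCU and 448 ± 250 CPM in shNC, and the fitted fold was 1.83 with a 95% interval from 0.76 to 4.38. It did not pass the test (unadjusted p = 0.16, adjusted p = 0.70, edgeR's quasi-likelihood test). Without shNC replicate 1 the log2 fold change was 1.44 (unadjusted p = 0.050, adjusted p = 0.61 by edgeR), and without shMCU replicate 3 it was 0.61 (adjusted p = 0.99 by edgeR). It passed the filter of 724 CPM through 2 shMCU libraries and 1 shNC library, so its place among the tested miRNAs owes more to the group in which it was higher.

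miR-424-5p, the partner of miR-503-5p in the cluster, was almost absent. It had 2, 0 and 0 counts in shMCU and 0, 1 and 1 counts in shNC libraries, and the ratio of 1.96 had an exact 95% interval from 0.14 to 27.0. The opposite arm of its hairpin was counted more often, with 1, 4 and 2 counts of miR-424-3p in shMCU and 7, 1 and 2 counts in shNC libraries. Over all 6 libraries the 3p arm made up 17 of 21 reads of MIR424, or 81.0% (exact 95% interval 58.1 to 94.6). In MIR503 the balance was the reverse, with 1 read of 77 (1.30%, interval 0.0329 to 7.02) on the 3p arm. Thus the reads of the X cluster that carry a family seed were nearly all miR-503-5p, with the seed AGCAGCG.

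Since miR-503-5p and miR-16-5p had fitted changes of opposite sign, the make-up of the family was compared within each library, which needs no scaling between libraries. miR-503-5p held 10.6%, 35.1% and 34.4% of family counts in shMCU replicates 1, 2 and 3, against 20.0%, 6.0% and 8.33% in shNC replicates 1, 2 and 3. Exact 95% intervals were 4.37 to 20.6, 20.2 to 52.5 and 18.6 to 53.2 in shMCU and 14.3 to 26.7, 1.25 to 16.5 and 3.42 to 16.4 in shNC. The groups crossed, since shMCU replicate 1 had a smaller share than shNC replicate 1, and the other shMCU libraries had the largest shares of all. The mean share was 26.7% ± 13.9 (SD, n = 3) in shMCU and 11.4% ± 7.5 in shNC, a difference of 15.3 percentage points, which was 23.3 points without shMCU replicate 1 and 11.4 points without shMCU replicate 3. For miR-16-5p the share was 72.7%, 54.1% and 59.4% in shMCU, against 66.9%, 84.0% and 79.8% in shNC, again with overlap. No test was made on these shares of the chosen members.

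**Figure D2:**
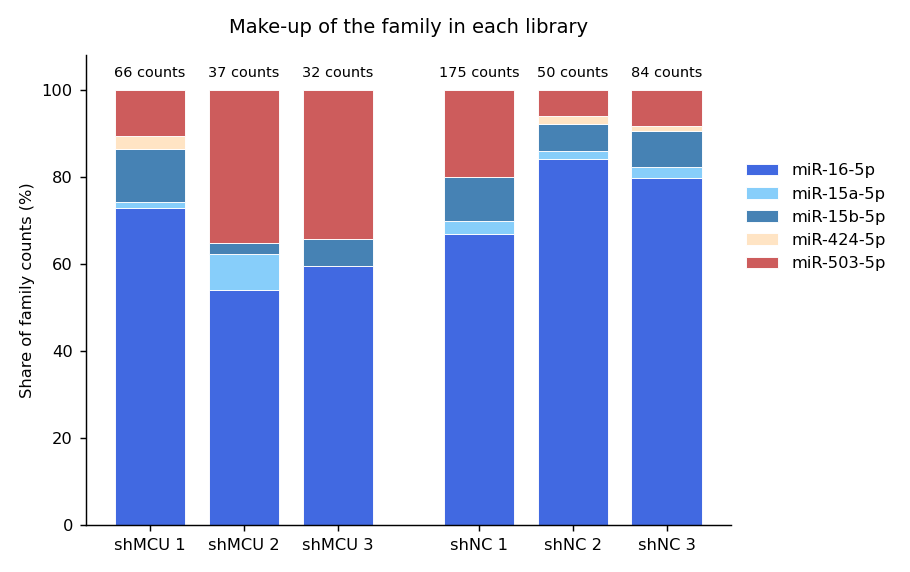
Share of family counts (%) held by each of the 5 listed members in each library, shMCU left and shNC right, with the family count above each bar. miR-503-5p takes 35.1% and 34.4% in shMCU replicates 2 and 3 and between 6.0% and 20.0% in shNC libraries, while shMCU replicate 1 is at 10.6%.

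Other arms and neighbours of the hairpins, from a list of 15 miRNAs of which 7 were listed and 0 passed the filter, give a second reading of the clusters. For chromosome 3, miR-15b-3p had 3, 4 and 2 counts in shMCU and 26, 3 and 10 counts in shNC libraries, a ratio of 0.45 with an exact 95% interval from 0.19 to 0.95 for counting error alone. By CPM it overlapped between the groups, with 220 ± 59.3 CPM in shMCU and 435 ± 154 CPM in shNC (SD, n = 3). The arms of MIR15B were nearly even, the 3p arm holding 48 of 87 reads (55.2%, interval 44.1 to 65.9). miR-16-2-3p, which only MIR16-2 gives, had 7, 4 and 1 counts in shMCU and 20, 0 and 7 counts in shNC libraries. With miR-15b-5p and miR-15b-3p it made 126 reads that belong to chromosome 3, whereas miR-15a-5p, the only listed product of chromosome 13 alone, gave 12. The arms of MIR16-1 and MIR15A on the 3p side were not listed, so this count does not set the share of miR-16-5p from either locus. The chromosome 3 reads, also summed after seeing the data, were at 1392, 613 and 389 CPM in shMCU replicates 1, 2 and 3, against 1337, 519 and 1207 CPM in shNC replicates 1, 2 and 3, and the groups overlapped.

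On the X chromosome, MIR450B (134540185 to 134540262), MIR450A1 (134540341 to 134540431) and MIR542 (134541341 to 134541437) lie on the same strand as MIR424 and MIR503. miR-450b-5p was the most abundant of these neighbours, with 4, 3 and 11 counts in shMCU and 11, 3 and 3 counts in shNC libraries. Its ratio was 2.07 (exact 95% interval 1.01 to 4.28, counting error only), and by CPM it was 456 ± 350 in shMCU and 213 ± 56.1 in shNC (SD, n = 3), with overlap. That ratio was 1.18 without shMCU replicate 3. Summed over the 7 listed arms of the X locus, including miR-503-5p and miR-424-5p, the level was 1315, 1361 and 1866 CPM in shMCU replicates 1, 2 and 3, against 1170, 778 and 704 CPM in shNC replicates 1, 2 and 3. All shMCU libraries were above all shNC libraries, narrowly so for shMCU replicate 1 and shNC replicate 1. Of the 79 tested miRNAs, 1.27% lay above in that way by CPM, 10.1% lay below, and 11.4% did not overlap in either direction. Those shares are for single miRNAs, so they are no measure of how rare such a sum of 7 arms is. The sum of miR-503-5p and miR-424-5p alone overlapped between the groups, at 812 ± 102 CPM in shMCU and 493 ± 208 CPM in shNC (SD, n = 3). For the 7 arms the means were 1514 ± 306 CPM in shMCU and 884 ± 250 CPM in shNC (SD, n = 3). With TMM-scaled totals they were 1664 ± 541 and 815 ± 197 CPM, and the groups also did not overlap. By TMM-scaled CPM, 15.2% of the 79 single miRNAs did not overlap in either direction. The sum over the 7 arms holds 61 counts in shMCU and 79 in shNC, and it was put together after seeing the data, without a test. In shMCU replicate 3, the library that stood apart, miR-450b-5p gave 11 of its 24 counts; without that library the difference in summed CPM was 454 in place of 630.

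**Figure D3:**
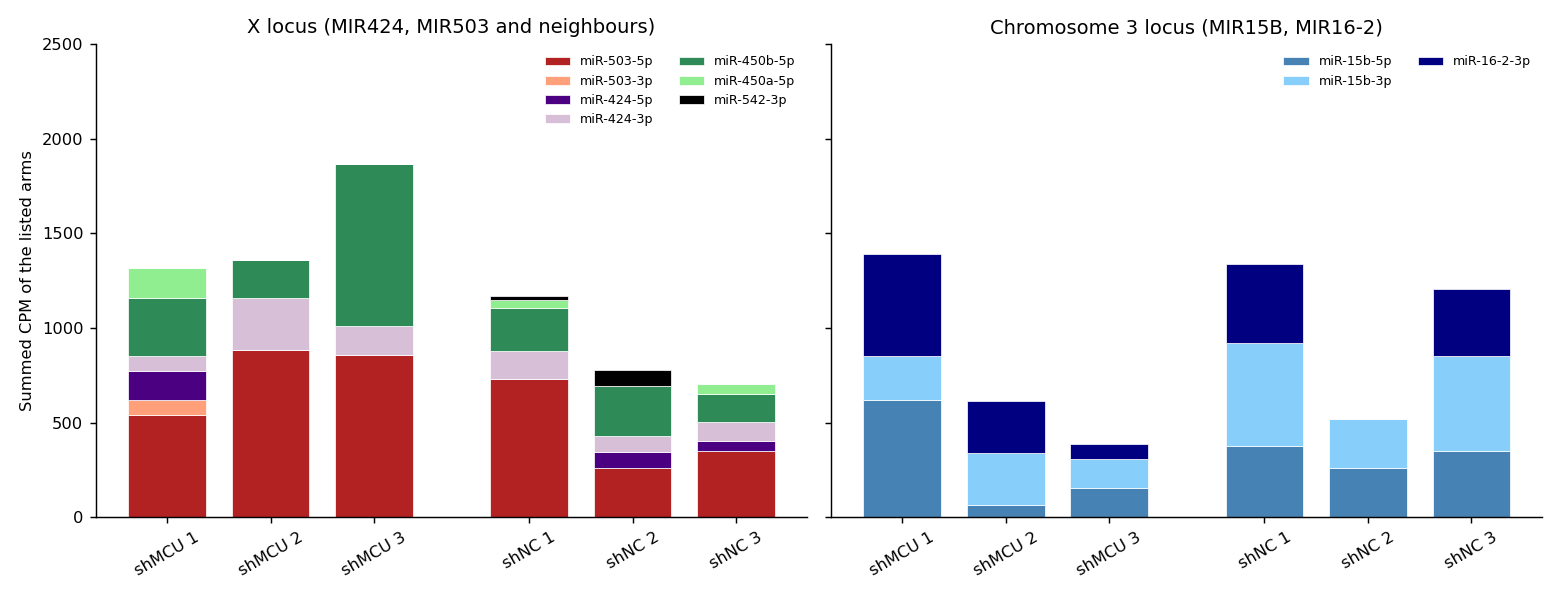
Summed CPM of the listed arms of the X locus (left panel) and of the chromosome 3 locus without the shared miR-16-5p (right panel), stacked by mature miRNA in each library, with shMCU libraries left of shNC libraries. The X locus is between 1315 and 1866 CPM in shMCU and between 704 and 1170 CPM in shNC libraries, and the chromosome 3 locus overlaps between the groups.

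miR-103a-3p and miR-107 begin with AGCAGCA, so they carry the family seed shifted by 1 base and have the seed GCAGCAU, in capitals here.
miR-103a-3p: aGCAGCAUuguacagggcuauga
miR-107: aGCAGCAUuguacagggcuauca
They come from introns of the pantothenate kinase genes and differ from each other only by G22C, so their separate counts are uncertain. miR-103a-3p had 23, 20 and 15 counts in shMCU and 101, 29 and 43 counts in shNC libraries, that is 1779, 1361 and 1167 CPM in shMCU against 2110, 2508 and 2163 CPM in shNC. Every shMCU library lay below every shNC library, which held for 10.1% of the 79 tested miRNAs. The fitted fold was 0.73 with a 95% interval from 0.45 to 1.19 and did not pass (unadjusted p = 0.18, adjusted p = 0.71, edgeR's quasi-likelihood test). miR-107, under the filter, likewise had all shMCU libraries below all shNC libraries, at 446 ± 83.0 CPM in shMCU and 690 ± 76.5 CPM in shNC (SD, n = 3). Its ratio of summed counts was 0.63 (exact 95% interval 0.35 to 1.09). Whether the fold of miR-103a-3p differs from that of miR-16-5p was not tested, and their intervals overlap.

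The patterns of the 2 tested members over the 6 libraries were unlike each other. Likeness was measured as the SD over 6 libraries of the log2 ratio between a pair of miRNAs, on TMM-scaled CPM with a prior count of 2, so a small value means a steady ratio. The ratio of miR-503-5p to miR-16-5p had an SD of 1.17, ranking 70th of 78 miRNAs by closeness to miR-16-5p and 64th by closeness to miR-503-5p. Closest to miR-16-5p were miR-22-3p (SD 0.26), miR-191-5p (0.28) and miR-29a-3p (0.29), against a median of 0.64 over the 78 others. Closest to miR-503-5p were miR-100-5p (SD 0.32), miR-423-5p (0.32) and let-7e-5p (0.36), against a median of 0.85. All values share the same 6 libraries and their depth, and the counting error of miR-503-5p, with as few as 3 counts, widens every ratio to it.

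Other miRNAs reported to target cyclins, CDKs, CDK inhibitors or E2F factors formed a list of 16, of which 15 were listed and 9 were tested. Of these 9, 0 passed in either direction by edgeR's quasi-likelihood test; 8 were fitted lower in shMCU and 1, let-7b-5p, higher, while of all 79 tested miRNAs 41 were fitted lower and 38 higher. The median log2 fold change was -0.20 for the list, against -0.02 over all 79. The 9 come from the same libraries and some are related miRNAs, so their signs are not independent. As the list joins miRNAs that target cyclins with others that target CDK inhibitors, a shared sign has no single reading. With library totals alone all 9 were fitted lower and the medians were -0.40 for the list and -0.23 over all 79. The smallest p belonged to miR-17-5p, with 1701, 408 and 622 CPM in shMCU replicates 1, 2 and 3, against 1400, 2335 and 1609 CPM in shNC replicates 1, 2 and 3. Its fold was 0.58 (95% interval 0.27 to 1.25; adjusted p = 0.70 by edgeR). Here shMCU replicate 1 sat among the shNC libraries, whereas for miR-16-5p it was above all of them. For both miRNAs the other shMCU libraries were below all shNC libraries. The next were miR-93-5p with a fold of 0.65 (0.34 to 1.24), miR-20a-5p with 0.69 (0.37 to 1.28) and miR-26a-5p with 0.81 (0.54 to 1.20). Without shMCU replicate 1 the log2 fold changes were -1.48 for miR-17-5p, -1.22 for miR-93-5p and -1.12 for miR-20a-5p, each with an adjusted p of 0.17 by edgeR. That of miR-26a-5p was then -0.30 (adjusted p = 0.56 by edgeR). Without shMCU replicate 2 the values were -0.46, -0.52, -0.54 and -0.44 in the same order. Leaving out shMCU replicate 3 gave -0.68, -0.35, -0.23 and -0.28, each with an adjusted p of 0.99 by edgeR.

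**Figure D4:**
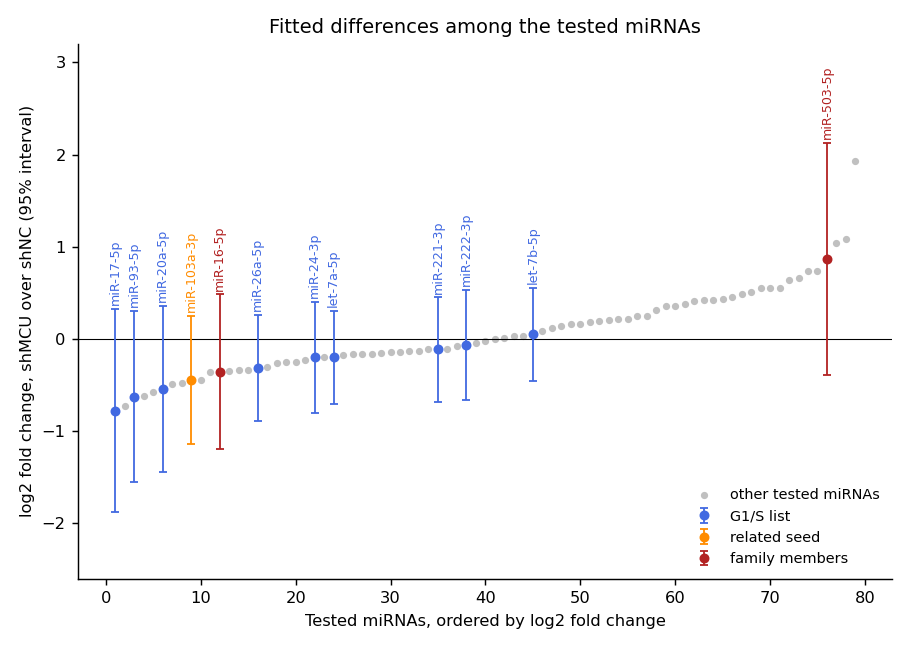
Fitted log2 fold change (shMCU over shNC) of the 79 tested miRNAs in rising order (grey points), with 95% intervals for the 2 tested family members (red), miR-103a-3p (orange) and the 9 tested miRNAs of the G1/S list (blue). All of these intervals cover 0; miR-16-5p lies at -0.35 and miR-503-5p at 0.87.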

How the data were processed

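Each deposited table holds raw counts of reads for mature miRNAs in a single library, a unit inferred from whole values; the authors had not scaled them. The submitters' processing notes name Bowtie, per the labels, and the build hg19. Its version and settings, how reads with several matches were treated, the counter and the miRNA release are not given in these sources. The members and the lists of other miRNAs were chosen with earlier results of these data known. Named were all members, all listed neighbours, arms and related seeds, the 4 G1/S miRNAs with the smallest p, and the 3 miRNAs most like each tested member.

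Groups came from the sample titles. The test was the quasi-likelihood F test of edgeR 4.0.16 (R 4.3.3), with TMM scaling, a robust fit, a model of group alone and filterByExpr at a minimum count of 10, and with Benjamini-Hochberg adjustment over the 79 miRNAs that passed; they held 95.5% to 96.6% of each library. Standard errors are the absolute log2 fold change over the square root of F. CPM use all listed counts and are not TMM-scaled unless stated; TMM factors ran from 0.82 to 1.12. Sums and shares over members were described without a test. Alternatives were DESeq2 1.42.0, other scalings and filters, the replicate number as a block, and each library left out.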

Additional observations from a re-analysis of the deposited data

How the results depend on the processing

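At an adjusted p of 0.05, calls by edgeR's quasi-likelihood test numbered 0 in the report. DESeq2, with its own Wald test, called 1 (miR-122-5p). The edgeR test without a filter called 1 (miR-375, named after its values were seen). The other alternatives, leaving out each library included, gave 0 calls. The cause of these differences was not tested. For miR-16-5p the log2 fold change was between -0.86 and -0.15 over 12 alternatives, with adjusted p from 0.26 to 0.99. For miR-503-5p it was between 0.61 and 1.44 over 10 alternatives, with adjusted p from 0.41 to 0.99; it did not pass the filter without shMCU replicate 2 or without the 10 most abundant miRNAs. With a filter of 100 counts in 3 libraries neither was tested. Under the alternatives run, all 82 fold changes of 7 named miRNAs kept their sign and stayed uncalled. Over all tested miRNAs the median log2 fold change was -0.02 with TMM and -0.23 with library totals alone; those of miR-16-5p and miR-503-5p were then -0.52 and 0.63. Deviations from the group means correlated at 0.16, -0.35 and 0.08 between same-numbered libraries. Libraries of different number were not compared, so these values cannot decide whether equal numbers are paired. With a replicate block the log2 fold changes of miR-16-5p and miR-503-5p were -0.41 and 0.94, with 0 calls. The summed family level differed by -698 CPM (shMCU minus shNC), by -254 CPM with TMM-scaled totals and by 267 CPM without miR-16-5p. With the 10 most abundant miRNAs taken out of the totals it differed by -392 CPM. Those totals were scaled back by the mean share left, to keep the unit. With a library left out the difference was -1565 to -257 CPM, the lowest without shMCU replicate 1. The share of miR-503-5p differed by 15.3 points, or by 11.0 to 23.3 points with a library left out. The alternatives for this share when leaving out libraries, those of the summed-count ratios and of the G1/S list, and the sums over the X and chromosome 3 loci with all their alternatives were chosen after seeing the data. For miR-424-5p, counts of 2 against 2 set no direction: its ratio was 0 without shMCU replicate 1. At 11563 to 47863 counts per library, miR-424-5p was at or under the limit that a count of 0 allows in all 6 libraries and miR-15a-5p in 5 of them.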
